A study of Homo sapiens with 6 samples.

Results

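This account concerns 10 genes that encode non-motor regulators of microtubule assembly in A2780 cells, chosen by name from the 58336 genes of the count table through their Ensembl identifiers. They are the stathmins *STMN1* and *STMN3*, the end-binding (EB) genes *MAPRE1*, *MAPRE2* and *MAPRE3*, the plus end factors *CKAP5*, *CLASP1* and *CLASP2*, the lattice-binding *MAP4*, and the microtubule-bound exchange factor *ARHGEF2*. All 10 were found once each and all 10 passed the filter on low counts. The cells, an ovarian cancer line that the labels place in ovarian tissue, received either DMSO vehicle or 6 µM TH588 (TH-588 in the labels). The labels give 48 h for TH588 and no time for DMSO. Both groups grew in the same insulin-supplemented medium. TH588 belongs to the mitotic MTH1 inhibitors, which target the nucleotide-cleaning hydrolase MTH1 and stall cells in mitosis. mRNA from 3 biological replicates per group, named A, B and C, was sequenced, and the study asked which transcripts TH588 changes. A2780 is a single cell line in culture, so differences among ovarian tumors are outside these data.

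Microtubules are hollow polymers of α- and β-tubulin dimers that switch between growth and shrinkage, mostly at their plus ends, and the mitotic spindle is built from them. Stathmins bind free tubulin dimers and favor shrinkage, whereas CKAP5 (ch-TOG) feeds dimers onto the growing end. EB proteins ride on growing ends and recruit other proteins there, among them the CLASPs, which rescue shrinking microtubules and hold them at kinetochores. MAP4 coats and steadies the polymer wall, and ARHGEF2 (GEF-H1) is kept inactive on microtubules and activates the GTPase RhoA when released.

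The libraries held 28537837 to 99074175 counts, TH588 replicate A being the shallowest. A small nucleolar RNA, *SNORD3A*, took 21.94% of the counts of that library. It took 11.2% and 12.95% in TH588 replicates B and C, and 7.68% to 10.59% in the DMSO libraries. Of 10 ovarian and epithelial markers, 8 stayed under 1 CPM in every library, *PAX8*, *KRT7* and *CDH1* among them. *KRT18* and *EPCAM*, the 2 that could be tested, were both called higher after TH588, and the list summed to 3.89 to 4.63 CPM with DMSO and to 10.9 to 12.2 CPM with TH588. Of 9 markers of fibroblasts, endothelium and blood cells, 6 stayed under 1 CPM, while the collagen gene *COL3A1* accounted for nearly all of a sum of 1584 to 1913 CPM with DMSO and 1871 to 2611 CPM with TH588. Of 6 p53 target genes all rose, among them *CDKN1A*, which encodes p21 and lay between 4.84 and 5.72 CPM in DMSO libraries but between 112 and 158 CPM after TH588.

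After TH588, 6 of the 10 regulators fell, 3 rose and 1 did not pass the test. *CKAP5* fell the most, to 0.612 of its DMSO level, and *MAPRE2*, *MAP4*, *MAPRE1*, *STMN1* and *CLASP2* fell less, by log2 fold changes between -0.54 and -0.33. *STMN3* rose 3.65-fold and *MAPRE3* 2.13-fold, and both belong to families whose more abundant members fell. *ARHGEF2* rose 1.29-fold, and *CLASP1* did not pass the threshold. Levels are given in CPM, the counts of a gene per 1000000 counts of the library after TMM scaling, and calls are at an adjusted p under 0.05 (Benjamini-Hochberg over 15844 genes) from edgeR's quasi-likelihood test. The 9 calls among 10 genes stand beside 49.6% of all tested genes called, 24.2% higher and 25.3% lower. Among the 9762 better-covered genes (mean log2 CPM 2 or more), where the test has more counts to work with, 60.8% were called, 24.3% higher and 36.5% lower. *STMN3* lies below that level and is not among them. A called change of over 2-fold was found upward in 2 of the 10, against 9.75% of all genes, and downward in 0 of the 10, against 4.76%. In 9 of the 10 the groups did not overlap, against 57.7% of all genes. The median log2 fold change of the 10 genes was -0.364, against 0.019 for all genes tested. All 12 markers of cycling cells fell over the same comparison, with a median of -1.107, and their part in the falls below was not tested. In bulk RNA, fewer cells of a kind and less RNA per cell cannot be told apart.

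**Figure D1:**
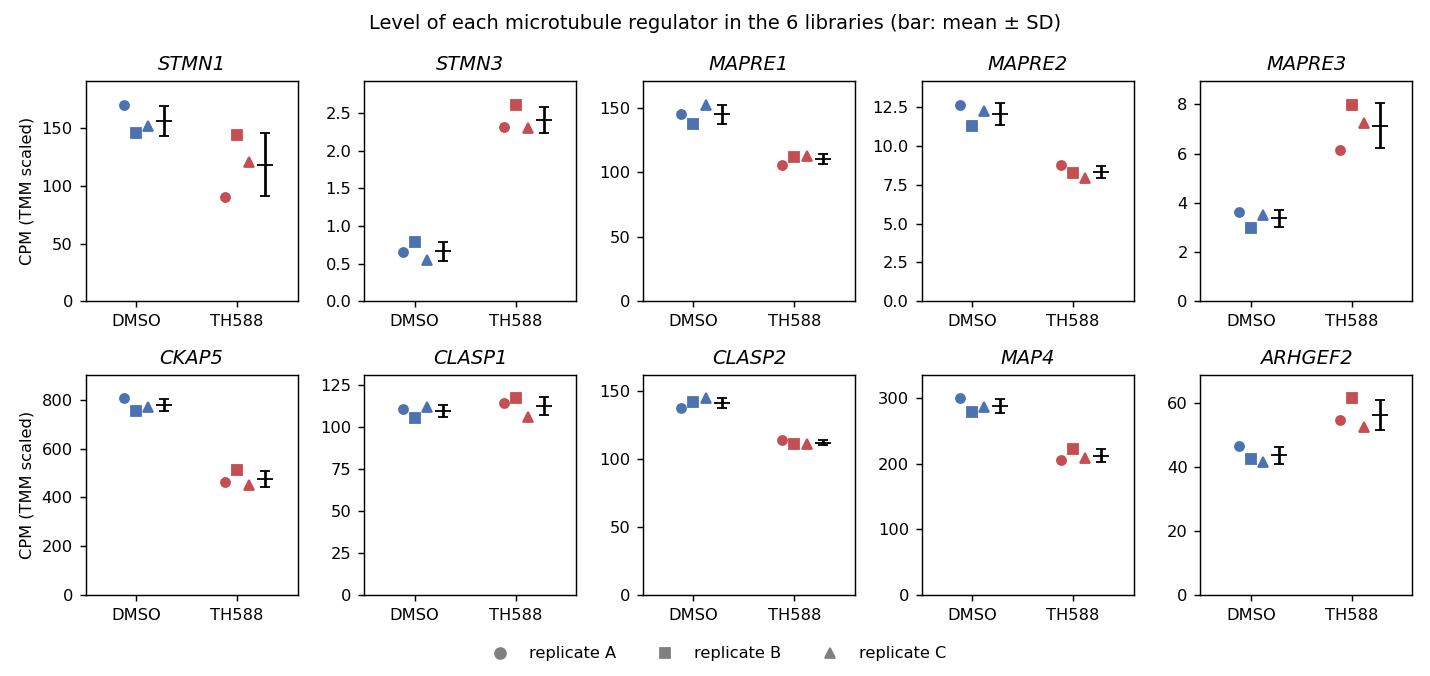
Level of each of the 10 regulators in every library, in CPM on a linear axis from 0, with a marker per replicate and the mean ± SD of each group as a bar (n = 3). DMSO and TH588 points are apart in 9 panels, while in the *CLASP1* panel they overlap, and the TH588 points of *STMN1* are widely spread, from 90.3 to 144 CPM.

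*STMN1* (ENSG00000117632, chromosome 1, 25884181 to 25906991 on the minus strand of GRCh38) encodes stathmin, also called oncoprotein 18, the widely expressed member of its family. The table counts it over 10 exon segments of 6261 bases in total, of which 1.1% are shared with the microRNA gene *MIR3917*, which had 0 counts in each library. DMSO replicates A, B and C held *STMN1* at 170, 146 and 152 CPM, and the TH588 replicates, in the same order, at 90.3, 144 and 121 CPM. The groups were thus separated by a narrow margin only, between TH588 replicate B and DMSO replicate B. The log2 fold change was -0.39 ± 0.14 (SE, edgeR adjusted p = 0.0322). Without TH588 replicate A it was -0.22 (edgeR adjusted p = 0.0752), a change in size of over 1.5 times. The call was also lost without DMSO replicate A (-0.30, edgeR adjusted p = 0.125). Without DMSO replicate C or TH588 replicate C the log2 fold change hardly moved (-0.40 and -0.39) and the adjusted p from edgeR, with fewer libraries, was 0.0714 and 0.0905. With library size only the adjusted p was 0.243, the highest of the 14 alternatives, and the lowest was 0.000239 without a filter. The direction stayed negative in all 14. Among the TH588 libraries, replicate A was the lowest for 7 of the 12 cycling markers, in between for 3 and the highest for 2 (*PCNA* and *MCM6*), and what these levels have to do with *STMN1* was not tested.

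*STMN3* (ENSG00000197457, chromosome 20, 63639705 to 63657682, minus strand) encodes SCLIP, a stathmin best known from neurons. It was scarce, with 0.657, 0.788 and 0.544 CPM in the DMSO libraries (54, 65 and 51 counts) and 2.32, 2.61 and 2.30 CPM in the TH588 libraries (62, 284 and 192 counts). Each TH588 library lay well above each DMSO library. The log2 fold change was 1.87 ± 0.22 (SE, edgeR adjusted p = 2.09e-05), and it was called in all 14 alternatives, between 1.76 and 2.00. Of the other stathmin genes, *STMN2* had 0 counts in all libraries, which bounds it at 3 counts, or 0.112 CPM in the shallowest, and *STMN4* had 0 counts with DMSO and 3, 2 and 1 counts with TH588. Neither could be tested.

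Levels of different genes can be compared only per length, so counts were divided by the exon bases of each gene to follow the make-up of a family within each library. Of the stathmin pair, *STMN3* provided 0.790%, 1.10% and 0.736% in the DMSO libraries, and 5.03%, 3.60% and 3.79% in the TH588 libraries. Its share was therefore higher in 3 of 3 TH588 libraries, by 3.27 percentage points on average (exact two-sided permutation test, p = 0.1, the smallest that 3 libraries against 3 can give). Every TH588 library had more *STMN3* and less *STMN1* than any DMSO library, so this separation restates those levels and adds no support. *STMN1* still provided at least 94.97% of the pair everywhere, and the sum of both fell from 25.1 ± 2.05 to 19.7 ± 4.37 CPM per kilobase (SD, n = 3 each) with overlapping groups (p = 0.2 in the same exact test).

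The EB genes divided in the same manner. *MAPRE1* (ENSG00000101367, chromosome 20, 32819893 to 32850405, plus strand) encodes EB1, the main end-tracking protein of dividing cells. It lay at 145, 137 and 152 CPM with DMSO and at 106, 112 and 113 CPM with TH588, so every TH588 library was below every DMSO library. The log2 fold change was -0.40 ± 0.08 (SE, edgeR adjusted p = 0.00104). *MAPRE2* (ENSG00000166974, chromosome 18, 34976928 to 35143470, plus strand) encodes EB2, and it was far less abundant, with 12.6, 11.2 and 12.2 CPM with DMSO and 8.74, 8.27 and 7.92 CPM with TH588. Every TH588 library was again below every DMSO library, with a log2 fold change of -0.54 ± 0.11 (SE, edgeR adjusted p = 0.00149). The intervals of both changes overlap, from -0.56 to -0.23 for *MAPRE1* and from -0.78 to -0.30 for *MAPRE2* (95%). *MAPRE3* (ENSG00000084764, chromosome 2, 26970612 to 27027196, plus strand) encodes EB3, the form associated with neurons and muscle. It went the other way, from 3.64, 2.98 and 3.51 CPM with DMSO to 6.16, 7.99 and 7.24 CPM with TH588. The lowest TH588 library was well above the highest DMSO library, and the log2 fold change was 1.09 ± 0.14 (SE, edgeR adjusted p = 5.67e-05). All 3 EB calls held in each of the 14 alternatives.

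Within the EB family, *MAPRE3* rose from 1.80%, 1.57% and 1.66% of the per-length total in the DMSO libraries to 4.09%, 4.99% and 4.52% in the TH588 libraries, with no overlap (exact two-sided permutation test, p = 0.1, again the smallest possible). This separation too restates the levels, as *MAPRE3* was higher and both other EB genes lower in every TH588 library than in any DMSO library. *MAPRE2* had overlapping shares, between 3.24% and 3.51% with DMSO and between 2.77% and 3.25% with TH588 (p = 0.2 in the same exact test). Without division by length they did not overlap, at 7.28% to 7.85% and 6.20% to 7.24%, nor did they without TH588 replicate A (p = 0.1 in both exact tests). *MAPRE1* remained the main transcript, at 94.97% ± 0.247 with DMSO and 92.5% ± 0.330 with TH588 (SD, n = 3 each). On the per-length scale *MAPRE2* and *MAPRE3* changed places, since *MAPRE2* was the higher with DMSO (1.95 ± 0.116 against 0.976 ± 0.101 CPM per kilobase) and *MAPRE3* with TH588 (2.06 ± 0.265 against 1.35 ± 0.0668 CPM per kilobase; SD, n = 3 each). The families' pseudogenes *STMN1P1*, *STMN1P2*, *MAPRE1P1*, *MAPRE1P2* and *MAPRE1P3* had 0 counts in all 6 libraries.

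**Figure D2:**
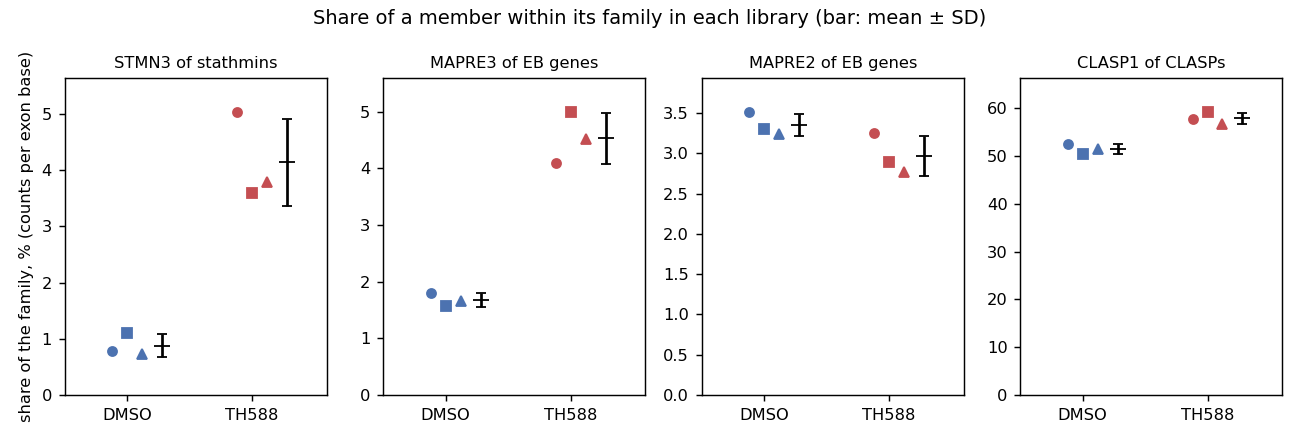
Share of a member in the summed counts per exon base of its family, in percent on linear axes from 0, with a marker per replicate (circle A, square B, triangle C) and the mean ± SD as a bar (n = 3). The shares of *STMN3*, *MAPRE3* and *CLASP1* are higher in every TH588 library than in any DMSO library, and those of *MAPRE2* overlap.

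*CKAP5* (ENSG00000175216, chromosome 11, 46743048 to 46846308, minus strand, 46 exon segments) encodes the microtubule polymerase ch-TOG and was the most abundant of the 10, both in CPM and per length. It lay at 805, 755 and 772 CPM with DMSO and at 462, 513 and 452 CPM with TH588, a gap far larger than the spread within either group. Its log2 fold change of -0.71 ± 0.08 (SE, edgeR adjusted p = 1.67e-05) ranged from -0.77 to -0.60 over the 14 alternatives. No exon of another gene overlaps those of *CKAP5*.

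The CLASP genes parted. *CLASP1* (ENSG00000074054, chromosome 2, 121337776 to 121649587, minus strand) lay at 111, 105 and 112 CPM with DMSO and at 114, 117 and 106 CPM with TH588. These values are interleaved, and the log2 fold change of 0.04 had a 95% interval from -0.13 to 0.21 (edgeR adjusted p = 0.698, 0.267 to 0.954 over the alternatives). An antisense gene, *CLASP1-AS1*, covers 2.9% of its exon bases and had 0 counts in all libraries. *CLASP2* (ENSG00000163539, chromosome 3, 33496245 to 33718356, minus strand) fell from 137, 142 and 145 CPM to 114, 111 and 111 CPM, with a log2 fold change of -0.33 ± 0.07 (SE, edgeR adjusted p = 0.00216). With library size only it was -0.23 and the call was lost (adjusted p = 0.0568), while the other 13 alternatives kept it. Compared within each library, *CLASP1* provided 51.5% ± 1.05 of the pair per length with DMSO and 57.9% ± 1.17 with TH588 (SD, n = 3 each). Its share was thus the larger in both groups. It was higher in every TH588 library than in any DMSO library (exact two-sided permutation test, p = 0.1, the smallest possible). As *CLASP2* was lower in every TH588 library while *CLASP1* hardly moved, this separation too restates the levels and adds no support.

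*MAP4* (ENSG00000047849, chromosome 3, 47850690 to 48089272, minus strand) encodes the main lattice-binding protein of non-neuronal cells. It fell from 300, 279 and 286 CPM with DMSO to 206, 223 and 208 CPM with TH588. The groups were far apart, with a log2 fold change of -0.44 ± 0.08 (SE, edgeR adjusted p = 0.000433) that was called in all alternatives. *ARHGEF2* (ENSG00000116584, chromosome 1, 155946851 to 156007070, minus strand) rose from 46.6, 42.5 and 41.6 CPM to 54.7, 61.3 and 52.4 CPM. Its log2 fold change of 0.37 ± 0.09 (SE, edgeR adjusted p = 0.00415) stayed between 0.30 and 0.47 and was called in all alternatives.

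**Figure D3:**
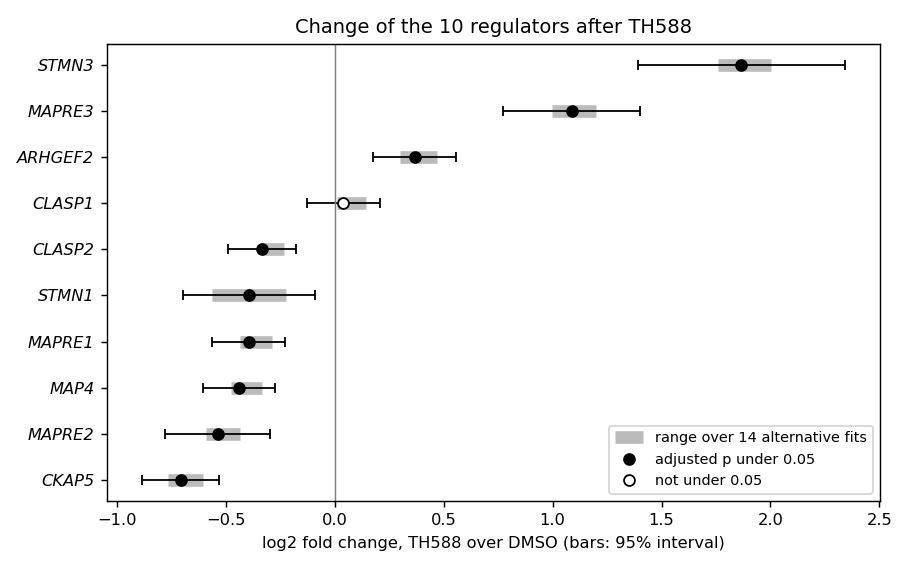
Log2 fold change of each regulator, TH588 over DMSO, with its 95% interval as a black bar and the range over 14 alternative fits as a grey band; filled points have an adjusted p under 0.05. *STMN3*, *MAPRE3* and *ARHGEF2* lie right of 0 and 6 genes lie left of it, and the interval of *CLASP1* spans 0.

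Per kilobase of exon, the order with DMSO was *CKAP5* (91.1 ± 2.999), *MAPRE1* (55.2 ± 2.87), *STMN1* (24.9 ± 2.06), *MAP4* (19.3 ± 0.689), *CLASP1* (9.88 ± 0.324), *CLASP2* (9.29 ± 0.243), *ARHGEF2* (4.77 ± 0.294), *MAPRE2*, *MAPRE3* and *STMN3* (0.219 ± 0.0401 CPM per kilobase; SD, n = 3 each). Only *CLASP1* and *CLASP2* were neighbors with overlapping DMSO libraries. With TH588 the order was the same apart from *MAPRE2* and *MAPRE3*, but *CLASP1* and *CLASP2* no longer overlapped (10.2 ± 0.506 and 7.37 ± 0.126 CPM per kilobase), and *STMN1* (18.9 ± 4.32) overlapped *MAP4* (14.2 ± 0.634). Each length covers all annotated exons of a gene, so a gene that mainly uses a short isoform is understated.

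Start regions were examined next, because 6 members were called lower, though whether their falls share a cause was not tested. RefSeq start windows (build GRCh38.p14, 250 bases before to 50 after each start) were found for all 10 genes, 20 windows in all. They were searched on both strands for TTTGAA, the cell cycle homology region (CHR) core, for the E2F forms TTTGGCGC, TTTGCCGC, TTTCGCGC and TTTCCCGC, and for CCAAT, and no matches of different motifs shared a base. The CHR letters were present in 5 of the 20 windows (25%, against 15.2% of 35116 windows of all genes), E2F letters in 3 (15% against 3.31%) and CCAAT in 9 (45% against 34.6%). Since a gene can have several starts, these windows belong to 4, 2 and 8 of the 10 genes. The E2F windows are those of separate *STMN1* starts and of *ARHGEF2*, so these shares of windows do not count genes independently. A match is a string of letters and not a bound site, and which start these cells use was not measured. The windows below belong to the most abundant stathmin, polymerase and EB transcripts, all of which fell, and show where the letters lie. *STMN1* has 3 start windows, and the one that holds CCAAT is printed. Capitals mark CCAAT, TTTGGCGC or TTTGAA in either orientation. They run 5′ to 3′ on the gene's strand, for *STMN1* and *CKAP5* from 110 to 31 bases before the start (chr1:25906450-25906529 and chr11:46846311-46846390, minus strand) and for *MAPRE1* around the match just after its start (chr20:32819951-32819980, plus strand). In the table's annotation 17 of the 80 bases of the *STMN1* stretch and 0 of the *CKAP5* stretch are exonic. That annotation begins *MAPRE1* at 32819893, before the RefSeq start, so its stretch lies inside the gene as counted, and its exonic bases were not counted.
STMN1: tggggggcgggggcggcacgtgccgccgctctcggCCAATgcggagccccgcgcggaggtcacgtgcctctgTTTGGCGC
CKAP5: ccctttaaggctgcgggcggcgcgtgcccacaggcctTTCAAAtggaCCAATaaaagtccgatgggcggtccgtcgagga
MAPRE1: ggggtctggcggTTTGAAcgagacgaagac

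In these windows, *STMN1* had CCAAT 75 bases and TTTGGCGC 38 bases before its start, *CKAP5* had the CHR letters reversed 73 bases and CCAAT 63 bases before it, and *MAPRE1* had the CHR letters from base 10 after it. The same starts have further matches outside the printed stretches. For *CKAP5* these are CCAAT 30 bases before the start, just past the end of the stretch, and the CHR letters reversed from base 18 after it. For *MAPRE1* it is CCAAT reversed 209 bases before the start. Another start of *STMN1*, not printed, has TTTCCCGC 250 bases before it. The CHR letters lay in windows of *CKAP5*, *MAPRE1*, *CLASP2* and *MAP4*, which all fell. Windows of *STMN1* and *MAPRE2*, which also fell, lacked them, as did those of the genes that rose and of *CLASP1*. Whether these letters bear on the falls was not tested. E2F letters were not confined to genes that fell, since a window of *ARHGEF2*, which rose, holds TTTGGCGC in the opposite orientation 91 bases before its start. CCAAT was not confined to them either. Windows of *MAPRE3* and *ARHGEF2*, which rose, and of *CLASP1*, which was not called, hold it reversed. The windows of *STMN3* and *MAPRE2* held none of these letters, although the former gene rose and the latter fell.

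Other genes were then compared by the distance of their 6 library values from those of a member, on a log2 scale set to 0 at the DMSO mean, over the same 9762 better-covered genes. Nearest to *CKAP5*, the largest fall, were *RBM28* (root mean square distance 0.0241), *NSUN2* (0.0251), *MDN1* (0.0255), *WBP11* (0.0307) and *DHX29* (0.0326), with log2 fold changes of -0.73 to -0.68. Nearest to *STMN3*, the largest rise, were *JUNB* (0.106), *ACBD4* (0.125), *ABHD4* (0.127), *ABCA1* (0.134) and *WDTC1* (0.144), with log2 fold changes of 1.67 to 1.88. With 6 libraries in 2 groups, this measure cannot separate a like pattern from an equal size of change.

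The 10 genes were set beside 120 other microtubule regulators in 5 lists, of which 119 were in the table and 111 could be tested. At an adjusted p under 0.05, 58 were lower and 22 were higher, together 72.1% of those tested. Over all genes 49.6% were called, 25.3% lower and 24.2% higher, and among the better-covered genes 60.8%, 36.5% lower and 24.3% higher. The median log2 fold change of the 111 was -0.314, and the counts of each list below stand against the same shares. Among severing and minus end proteins, 6 of 10 tested were lower and 1 was higher. *FIGNL1*, a fidgetin-like ATPase, fell by 1.65 on the log2 scale and *KATNBL1*, a katanin regulatory subunit, by 0.44, while the katanin-like *KATNAL2* rose by 1.32.

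Among other plus end proteins and their cortical or kinetochore linkers, 14 of 29 were lower and 6 were higher. *SKA3* and *SKA1*, which couple kinetochores to microtubule ends, had log2 fold changes of -1.96 and -1.46. The CLIP genes went up, with *CLIP3* moving from 1.99 ± 0.232 to 15.9 ± 1.73 CPM (SD, n = 3 each; log2 fold change 2.99, edgeR adjusted p = 2.72e-08) and *CLIP2* with a log2 fold change of 1.14. The remaining members of that family, named after their values were seen, also rose, *CLIP4* from 6.98 to 13.98 CPM on average and *CLIP1* from 88.2 to 111 CPM.

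Of 22 genes for nucleation from γ-tubulin, 14 were lower and 2 were higher. *TUBGCP3*, a subunit of the γ-tubulin ring complex, and *HAUS8*, of the augmin complex that branches spindle microtubules, had log2 fold changes of -1.30 and -1.14. *TUBG2*, the minor γ-tubulin gene, rose from 24.2 ± 2.22 to 49.7 ± 3.43 CPM, whereas *TUBG1*, named after its value was seen, fell from 289 ± 25.7 to 199 ± 13.7 CPM (SD, n = 3 each; log2 fold changes 1.03 and -0.54, edgeR adjusted p = 2.82e-06 and 0.000326). The scaffold *AKAP9* rose by 0.38.

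Of 29 other lattice-binding and bundling genes, 16 were lower and 4 were higher. The spindle protein gene *CKAP2L* and *EML1* had log2 fold changes of -1.50 and -1.44, and *EML2* and the doublecortin-like kinase *DCLK1* rose by 1.57 and 1.17. The tubulin-modifying enzymes were the most evenly divided list, with 9 of 21 higher and 8 lower. The tubulin glycylase *TTLL3* and the deglutamylase *AGBL5* rose by 1.07 and 1.06, and the glutamylase *TTLL4* and *TTLL12* had log2 fold changes of -0.74 and -0.66. Of 11 genes around RhoA, on which ARHGEF2 acts, 7 were lower and 2 were higher. *RHOC* rose by 1.05, *ROCK2* and the cytokinesis exchange factor *ECT2* had log2 fold changes of -0.88 and -0.84, and *RHOA* itself, named after its value was seen, had -0.59.

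**Figure D4:**
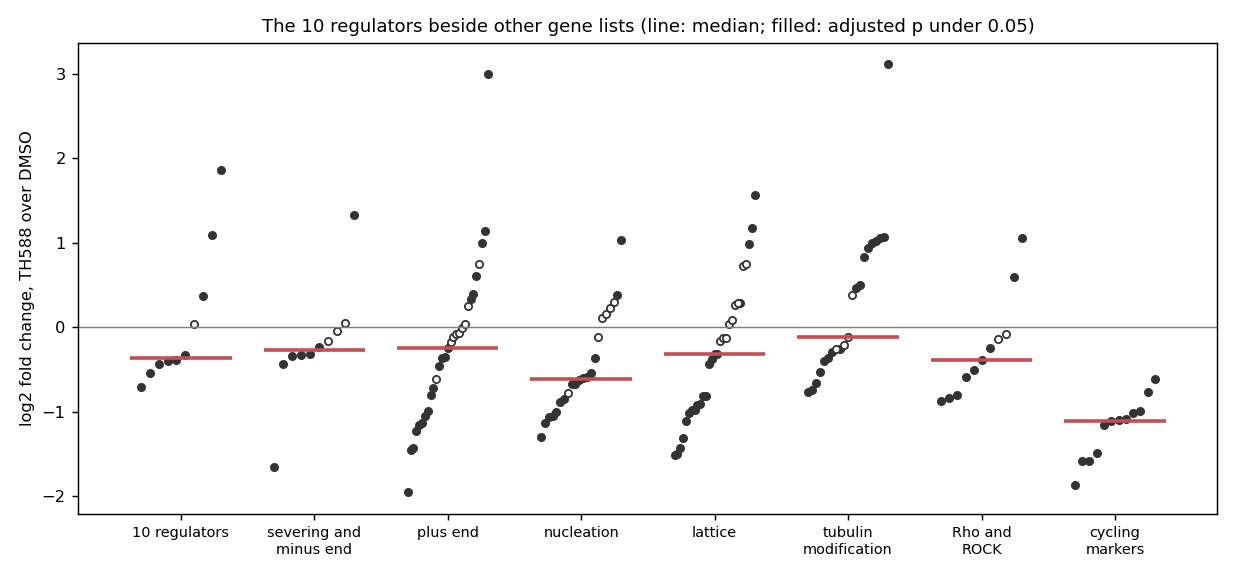
Log2 fold change, TH588 over DMSO, of each tested gene of the 10 regulators and of 7 other lists, ordered within a list; filled points have an adjusted p under 0.05 and the red line is the list's median. The 10 regulators have a median of -0.364 and their largest fall is -0.71, while the cycling markers have a median of -1.107 and run from -1.86 to -0.62.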

How the data were processed

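RNA of A2780 cells (3 DMSO and 3 TH588 libraries) was prepared with an Illumina TruSeq kit for polyA RNA. The authors aligned reads with TopHat to GRCh38 and counted them per gene with featureCounts 1.4.6, and the deposited values are raw counts. Gene models are called UCSC in the methods but carry Ensembl identifiers in the table, and 57754 of 58336 were matched to a symbol. How reads matching several genes were counted, and whether strand was used, is not given in the sources used here. The sources call the replicates biological.

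Counts were compared with edgeR 4.0.16 in R 4.3.3 (TMM, default filter on low counts, quasi-likelihood test, no covariate). A standard error (SE) is the fold change on the log2 scale over the root of F. Alternatives were library size only, the size factors and the test of DESeq2 1.42.0, voom (limma 3.58.1), a filter of 10 counts per library or none, removal of the 10 most abundant genes, a threshold of 0.01, each library left out in turn and the replicate letter as a block. The code was tested on simulated data.

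All 10 members were named, and in each other list the 2 largest called rises and falls with non-overlapping groups and a mean log2 CPM not under 2; exceptions are stated. Cycling and p53 markers could be named freely. The members and lists were chosen with earlier results of these data known. Floors of 3 counts cover counting error only. Within groups, libraries differed beyond sampling noise (chi-square per degree of freedom 25.0 to 176), so none was merged.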

Additional observations from a re-analysis of the deposited data

How the results depend on the processing

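The direction of each of the 10 genes was the same in all 14 alternative fits, and 8 of the 10 kept their side of the threshold in all of them. The exceptions were *STMN1*, called in 9 of 14, and *CLASP2*, called in 13 of 14. The number of regulators called was 9 as reported, 7 under scaling by library size only and 8 at a threshold of 0.01. Under library size only, the higher genes made up 60.4% of those called instead of 48.9%, and the median change over all genes was 0.126 rather than 0.019 on the log2 scale. Same-letter libraries did not deviate together over all genes (correlations of deviations -0.07, -0.08 and 0), so no pairing by letter was seen. With 3 libraries per group this check cannot exclude a weak shared effect. With the replicate block 9 of the 10 genes and 7195 of all genes were called, against 7852 without it. TH588 replicate A was the shallowest library and sets a floor of 0.112 CPM for *STMN2*, which had no counts. *STMN4* had 3 counts in that library and so lay at this floor. Family shares kept their direction without any one library and without division by length, and the overlap of the *MAPRE2* shares ended in the latter case and without TH588 replicate A.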
